A study of Homo sapiens with 14 samples.

Results

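The mevalonate arm of cholesterol synthesis was examined in Jurkat cells, a human T-cell acute lymphoblastic leukaemia line, under chemical or genetic interference with the kinase scaffold KSR2. The members were chosen by symbol, as genes of enzymes on the way from acetoacetyl-CoA to squalene epoxide: ACAT2, HMGCS1, MVK, PMVK, MVD, IDI1, FDPS, FDFT1 and SQLE, in pathway order. Not every step is among the members, and the arm below means these 9 genes. They were 9 of the 61541 genes in the counts table and 9 of the 18963 genes that passed the low-count filter, and each member passed it. The rule itself used no measured value, but the members were chosen with earlier results of these data known.

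Polyadenylated RNA of 14 libraries in 5 groups had been sequenced. Jurkat cells received either DMSO as solvent (n = 3) or the KSR inhibitor APS-2-79 (KSRi, n = 3). In the genetic arm they carried a non-targeting control (NT, n = 2), KSR2 guide 1 (n = 3) or KSR2 guide 2 (n = 3). The labels describe the genetic method in conflicting terms: a CRISPR knockout in the titles, CRISPR interference in the text on the design, and a hairpin in the name of the control libraries. The groups are therefore called NT, guide 1 and guide 2. The sources used here do not give the dose, the length of treatment, the guide sequences or the time in culture, and the extraction protocol describes the cells of all 5 groups as transduced. All libraries come from 1 cell line, and nothing in the labels says that replicates were separate cultures.

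Mevalonate is built from acetyl-CoA in the cytosol and is turned through phosphorylated intermediates into isopentenyl diphosphate, the building block of all isoprenoids. Farnesyl diphosphate is the branch point: it is used for protein prenylation, ubiquinone and dolichol, or it is joined into squalene and carried on to cholesterol. When sterols run low in the endoplasmic reticulum, the SREBP transcription factors are released to the nucleus and switch on the genes of this pathway, and INSIG proteins hold them back when sterols are plentiful. SREBP acts at promoters together with the factors NF-Y, which binds the CCAAT box, and SP1, which binds GC boxes.

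The promoter sequences are shown first, as a description. Whether their motifs have a part in the changes given below was not tested. RefSeq promoter windows (250 bases before to 50 after a transcript start) were found for 6 of the 9 members, with 9 windows among them: 3 for IDI1, 2 for HMGCS1 and 1 each for MVK, PMVK, MVD and FDPS. ACAT2, FDFT1 and SQLE had no window in that table. The stretches below lie upstream of the annotated exons, for the members whose windows held at least 2 CCAAT boxes and had such a stretch, and are written 5′ to 3′ in the direction of transcription. Capitals mark the CCAAT box (CCAAT, or ATTGG on the other strand) and the GC box (GGGCGG, or CCGCCC on the other strand). Boxes nearer to the start, such as the second of HMGCS1, lie in the part covered by annotated exons and are given by count only, as is the whole MVK window.

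MVD, GRCh38.p14, chr16:88663162-88663297, minus strand: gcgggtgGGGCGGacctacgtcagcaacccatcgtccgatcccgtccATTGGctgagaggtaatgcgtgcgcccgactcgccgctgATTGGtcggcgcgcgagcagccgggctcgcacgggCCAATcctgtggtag
HMGCS1 start 1, GRCh38.p14, chr5:43313513-43313662, minus strand: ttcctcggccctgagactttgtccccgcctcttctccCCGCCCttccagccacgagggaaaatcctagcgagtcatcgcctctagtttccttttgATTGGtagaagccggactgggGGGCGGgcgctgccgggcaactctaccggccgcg
IDI1 start 2, GRCh38.p14, chr10:1049171-1049369, minus strand: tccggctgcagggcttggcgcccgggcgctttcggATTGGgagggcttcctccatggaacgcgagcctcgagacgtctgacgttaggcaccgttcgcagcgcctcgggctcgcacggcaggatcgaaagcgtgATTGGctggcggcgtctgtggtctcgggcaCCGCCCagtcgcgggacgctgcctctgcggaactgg
FDPS, GRCh38.p14, chr1:155308616-155308747, plus strand: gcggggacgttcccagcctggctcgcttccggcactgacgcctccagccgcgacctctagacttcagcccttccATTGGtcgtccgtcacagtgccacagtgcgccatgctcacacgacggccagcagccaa

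The CCAAT box was found, on either strand, in 6 of the 9 windows, each with at least 2 copies, and in 5 of the 6 members with a window. Of all 35116 windows in RefSeq's table, a share of 34.6% held the CCAAT box, 10.8% held at least 2 copies and 3.26% at least 3. At least 3 copies were found in 4 windows: MVK held 5, MVD 3, FDPS 3 and the third IDI1 start 3, of which 2 overlapped each other. PMVK held 0, but the upstream part of its window is all annotated exon. The second HMGCS1 start and the first IDI1 start also held 0, while other starts of both genes held at least 2 copies. The GC box was found in 9 of 9 windows, against 45.0% of all windows. A sterol response element written as TCACNCCAC was found in 0 windows (1.13% of all), and its core CACNCCAC, which the longer motif contains, in 1 window, the third IDI1 start (5.87% of all). The E box CACGTG was found in 0 windows (7.26% of all). These are matches of letters in short windows and say nothing of binding.

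**Figure D1:**
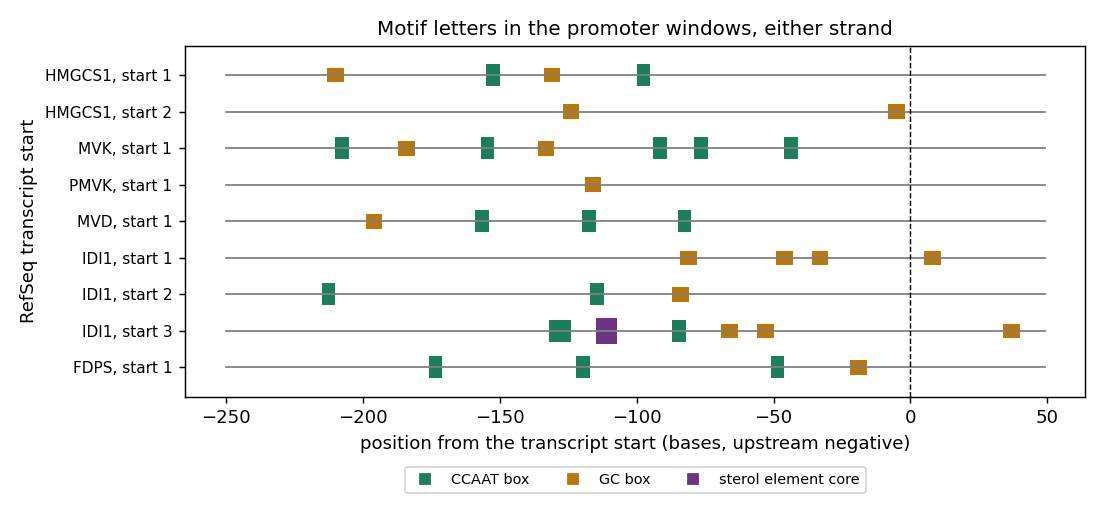
Positions of the CCAAT box, the GC box and the sterol element core in the 9 promoter windows of 6 members, in bases from the RefSeq transcript start (horizontal axis, upstream negative, dashed line at the start), with 1 line per start. CCAAT boxes appear upstream of 6 starts. They do not appear in the windows of PMVK, the second HMGCS1 start and the first IDI1 start. The sterol element core appears once.

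Library totals were 27099107 to 43027877 counts in DMSO, 21710466 to 45897075 in KSRi, 25794010 to 34535929 in NT, 33919545 to 38801454 with guide 1 and 29979565 to 42717502 with guide 2. The lowest count of any member in any library was 552, for PMVK. Of 11 T-lineage markers 11 were above 1 CPM on average (CPM, a count relative to the total of its library, scaled by TMM factors), with a summed level of 1925 to 2806 CPM. Of 5 B-lineage markers 1 was above 1 CPM, and myeloid and erythroid markers were above it in 0 of 5 cases each, with summed levels of at most 0.880 and 0.0504 CPM. Mitochondrially encoded transcripts took 1.27% to 1.45% of counts in DMSO, 1.12% to 2.51% in KSRi, 1.85% to 2.50% in NT, 1.76% to 2.37% with guide 1 and 1.15% to 2.71% with guide 2. KSR2 stood at 34.8, 39.3 and 36.8 CPM in DMSO, 33.5, 35.6 and 33.6 in KSRi and 30.1 and 28.97 in NT. It was at 0.664, 0.453 and 0.507 CPM with guide 1 and at 0.822, 0.730 and 0.746 CPM with guide 2, a log2 change over both guides of −5.51 (edgeR adjusted p = 1.65e-16). With the inhibitor the log2 change of KSR2 was −0.11 (edgeR adjusted p = 0.276), and its relative KSR1 rose by 0.56 (edgeR adjusted p = 6.15e-05).

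What the inhibitor changed was asked by comparing KSRi with DMSO. The inhibitor raised 8 of the 9 members and lowered 0, from 2.87-fold for SQLE to 12.7-fold for MVD, and PMVK alone did not pass the test. Among all 18963 tested genes 22.0% were called higher and 18.7% lower, 40.7% in all. The median log2 change of the 9 members was 2.15, and over all tested genes it was 0.02. Values of the 8 members that rose did not overlap between the groups, with every KSRi library above every DMSO library, which was so for 25.0% of all tested genes (and the reverse for 21.9%).

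The condensing enzymes at the head of the arm both rose. ACAT2 (chromosome 6, 159760328 to 159779055, plus strand, GRCh38), the cytosolic thiolase that makes acetoacetyl-CoA, stood at 212, 213 and 213 CPM in DMSO and at 1052, 1274 and 1427 CPM in KSRi. The lowest KSRi library was thus well above the DMSO libraries, which lay within 1 CPM of each other, and the rise was 5.88-fold (edgeR log2 change 2.55, SE 0.10, adjusted p = 6.91e-12). HMGCS1 (chromosome 5, 43289395 to 43313512, minus strand), the cytosolic synthase that adds a further acetyl group to give HMG-CoA, stood at 668, 651 and 655 CPM in DMSO and at 5675, 6099 and 6281 CPM in KSRi. Every KSRi library was above every DMSO library, and the transcript rose 9.15-fold (edgeR log2 change 3.19, SE 0.07, adjusted p = 3.76e-14).

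The 3 enzymes that act on mevalonate and its phosphates behaved unequally. MVK (chromosome 12, 109573255 to 109598117, plus strand), the kinase that adds the first phosphate, stood at 51.2, 49.01 and 50.7 CPM in DMSO and at 173, 187 and 235 CPM in KSRi. The groups were far apart, with a 3.94-fold rise (edgeR log2 change 1.98, SE 0.09, adjusted p = 7.98e-11). PMVK (chromosome 1, 154924734 to 154936991, minus strand), which adds the next phosphate, stood at 39.5, 30.2 and 32.7 CPM in DMSO and at 28.4, 34.2 and 44.7 CPM in KSRi. Its lowest and its highest library were both KSRi libraries, and the log2 change was 0.06 (SE 0.13, 95% interval −0.21 to 0.33, edgeR adjusted p = 0.743). That interval lies below the value of every other member. MVD (chromosome 16, 88651935 to 88663161, minus strand), the decarboxylase that yields isopentenyl diphosphate, stood at 113, 106 and 124 CPM in DMSO and at 1198, 1440 and 1732 CPM in KSRi. With 12.7-fold it rose most of the 9 (edgeR log2 change 3.67, SE 0.13, adjusted p = 2.50e-12) and ranked 27 among all tested genes by log2 change.

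The enzymes that build and join prenyl units rose as well. IDI1 (chromosome 10, 1039152 to 1049170, minus strand), the isomerase that supplies dimethylallyl diphosphate, stood at 231, 234 and 227 CPM in DMSO and at 876, 895 and 860.0 CPM in KSRi. Its KSRi libraries were the tightest of any member, and the rise was 3.80-fold (edgeR log2 change 1.93, SE 0.07, adjusted p = 6.32e-12). FDPS (chromosome 1, 155308748 to 155320666, plus strand), the synthase of farnesyl diphosphate and the target of bisphosphonate drugs, stood at 227, 265 and 250 CPM in DMSO and at 1432, 1809 and 1844 CPM in KSRi. This was a 6.86-fold rise without overlap (edgeR log2 change 2.78, SE 0.10, adjusted p = 3.23e-12).

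Both enzymes of the steps committed to sterols rose. FDFT1 (chromosome 8, 11795573 to 11839309, plus strand), squalene synthase, stood at 632, 695 and 730 CPM in DMSO and at 2570, 3031 and 3549 CPM in KSRi, a 4.45-fold rise (edgeR log2 change 2.15, SE 0.10, adjusted p = 6.67e-11). SQLE (chromosome 8, 124998497 to 125022283, plus strand), the oxygen-dependent squalene epoxidase, stood at 265, 255 and 257 CPM in DMSO and at 653, 777 and 799 CPM in KSRi. Among the 8 that rose it had the lowest fold, 2.87 (edgeR log2 change 1.52, SE 0.07, adjusted p = 1.43e-10). Its 95% interval, 1.36 to 1.68, lay below those of the other 7.

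**Figure D2:**
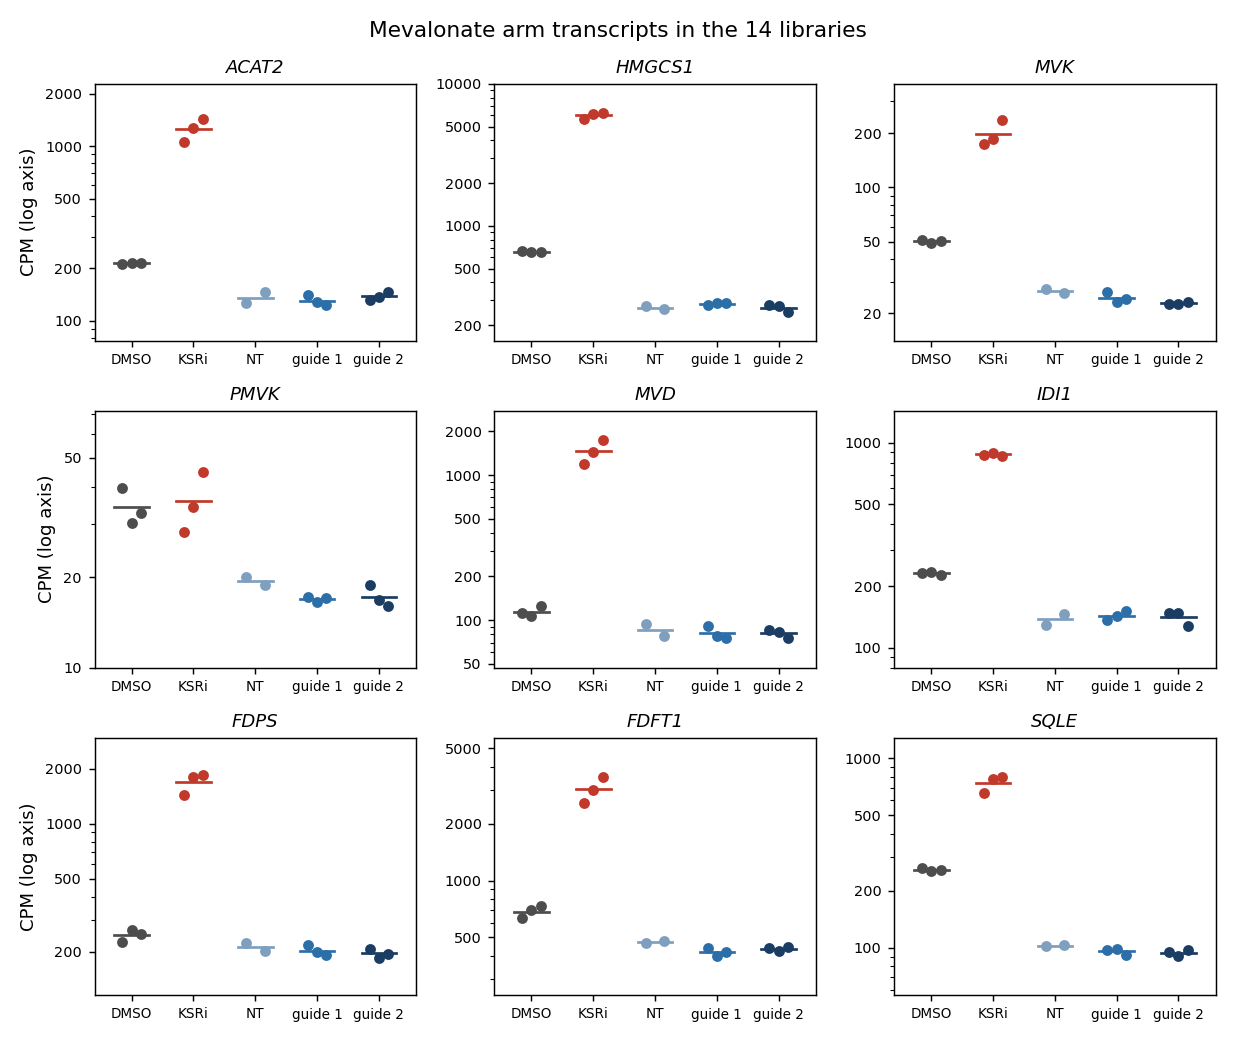
Level of each of the 9 transcripts in every library, in CPM on a log axis with its own range in each panel; points are libraries and lines are group means of DMSO, KSRi, NT, guide 1 and guide 2. The 3 KSRi points stand above all others in every panel except PMVK, and the NT and guide points lie below the DMSO points in all 9 panels.

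The 3 KSRi libraries were not equal. Replicate 1 was the lowest and replicate 3 the highest in 8 of 9 members, and IDI1 was the exception. Outside the members KSR1 had the same order (27.9, 32.3 and 35.95 CPM), and RABGGTB, named below, had the reverse (95.6, 83.3 and 67.2 CPM). How many of all tested genes had this order was not counted, so it is not read as particular to the members. The ratio of the highest to the lowest KSRi library was 1.04 for IDI1, 1.45 for MVD and 1.58 for PMVK. The summed level of the 9 members was 13660, 15550 and 16770 CPM in KSRi replicates 1, 2 and 3. Mitochondrially encoded transcripts took 2.51%, 2.06% and 1.12% of counts in the same libraries, and the library totals were 31828882, 45897075 and 21710466 counts. Whether these differences have a part in the order of the libraries was not tested.

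**Figure D3:**
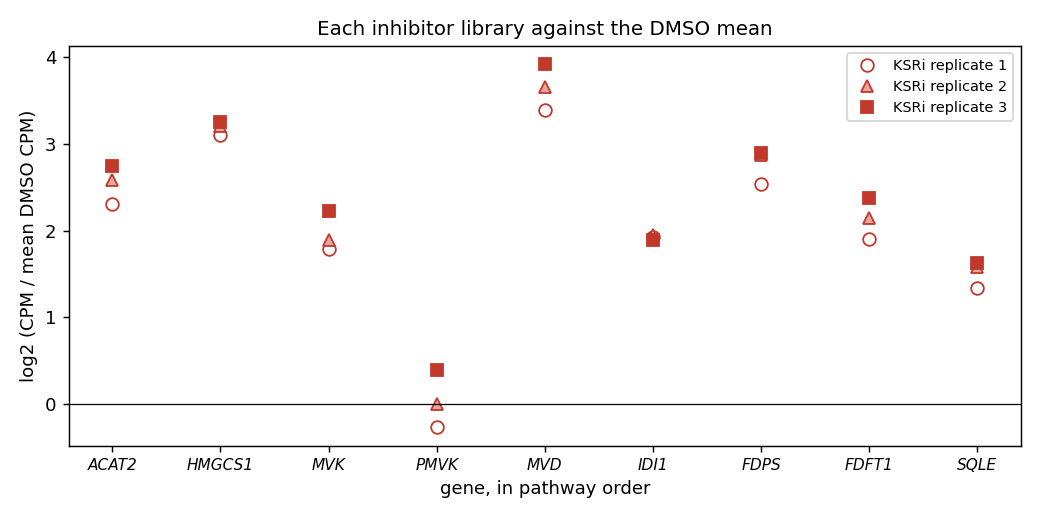
Each KSRi library against the DMSO mean, as log2 of the ratio of CPM values (vertical axis), for the 9 genes in pathway order; symbols are the 3 KSRi replicates. Replicate 1 (open circles) is lowest and replicate 3 (squares) highest for all but IDI1, and the PMVK points lie on both sides of 0.

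Because the folds were unequal, the make-up of the arm changed. Together the 9 members gave 0.224% of all counts in DMSO and 1.35% in KSRi, and their summed level went from 2492 ± 50.8 to 15330 ± 1567 CPM (SD, n = 3 each), 6.15-fold. HMGCS1 made up 26.4% ± 0.864 of the summed level in DMSO and 39.4% ± 2.06 in KSRi, and MVD went from 4.59% ± 0.329 to 9.45% ± 0.795. SQLE went the other way, from 10.4% ± 0.401 to 4.85% ± 0.130, as did FDFT1, from 27.5% ± 1.43 to 19.8% ± 1.20. The share of PMVK went from 1.37% ± 0.218 to 0.231% ± 0.031.

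Per kilobase of exon the order of the members also shifted. In DMSO HMGCS1 (140 ± 1.90 CPM per kb, SD, n = 3) and FDFT1 (132 ± 9.49) were highest, with library ranges that overlapped. FDPS (66.4 ± 5.11), SQLE (60.1 ± 1.16), IDI1 (53.1 ± 0.785) and ACAT2 (49.5 ± 0.118) followed. PMVK (26.7 ± 3.76), MVD (24.2 ± 1.97) and MVK (7.76 ± 0.175) were lowest. In KSRi HMGCS1 stood at 1280 ± 66.1 CPM per kb, FDFT1 at 586 ± 94.1, FDPS at 456 ± 61.4, MVD at 309 ± 56.7, ACAT2 at 291 ± 43.9, IDI1 at 202 ± 4.05 and SQLE at 173 ± 18.4. MVK (30.6 ± 5.01) and PMVK (27.9 ± 6.47) then shared the lowest place, within their spread. The length used was that of all annotated exons merged, 6.48 kb for MVK and 1.28 kb for PMVK. This order depends on that choice, which the SD does not cover: before division by length the KSRi means were 198 CPM for MVK and 35.8 CPM for PMVK.

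The comparison of the 2 control groups, NT with DMSO, gives the level from which the guide libraries start. It went the opposite way: 8 of the 9 members were lower in NT and 0 were higher, where 31.2% of all tested genes were called lower and 34.6% higher, 65.8% in all. The median log2 difference was −0.75, and over all genes it was 0.04. Of the B-lineage markers CD79A was the 1 above 1 CPM; the summed level of the 5 was 21.8 to 23.1 CPM in DMSO, 46.9 and 68.0 CPM in NT and 43.5 to 59.3 CPM with the guides, and MS4A1, CD79B and PAX5 stood at or near 0 in all groups. In bulk RNA, more cells with a transcript and more of it per cell cannot be told apart, and the part of these markers in the difference between controls was not tested. The type of control and any difference in culture or batch cannot be told apart here. Both this comparison and the one with KSRi use the same DMSO libraries.

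The falls were of unlike size along the arm. SQLE stood at 102 and 103 CPM in NT, against the DMSO range of 255 to 265 CPM given above, a log2 difference of −1.33 (SE 0.09, edgeR adjusted p = 7.58e-10). HMGCS1 stood at 274 and 258 CPM, with a log2 difference of −1.31 (SE 0.08, edgeR adjusted p = 4.52e-10). These were the 2 members that were at least 2-fold lower. MVK, at 27.2 and 25.9 CPM, differed by −0.92 (SE 0.11, edgeR adjusted p = 9.38e-07). PMVK, at 20.0 and 18.9 CPM, differed by −0.81 (SE 0.15, edgeR adjusted p = 0.000149), so the transcript that did not pass the test with the inhibitor did differ between the controls.

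IDI1, at 129 and 146 CPM in NT, differed by −0.75 (SE 0.08, edgeR adjusted p = 5.00e-07). ACAT2, at 126 and 145 CPM, differed by −0.65 (SE 0.11, edgeR adjusted p = 4.94e-05). FDFT1, at 469 and 479 CPM, differed by −0.53 (SE 0.11, edgeR adjusted p = 0.000378). The differences of MVD and FDPS were the smallest of the 9. MVD, at 93.6 and 78.3 CPM, differed by −0.41 (SE 0.13, edgeR adjusted p = 0.0112), a call that was lost without NT replicate 2 (−0.29, edgeR adjusted p = 0.152) and with upper-quartile factors (−0.20, edgeR adjusted p = 0.170). FDPS, at 224 and 202 CPM, differed by −0.21 (SE 0.11, 95% interval −0.44 to 0.01, edgeR adjusted p = 0.0862).

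Every NT library was below every DMSO library in 9 of 9 members, as for 37.8% of all tested genes (and the reverse for 41.5%). This comparison depended on the scaling of the libraries: with upper-quartile factors the median over all genes moved from 0.04 to 0.26, and the split of all calls went from 6568 higher and 5909 lower to 8283 higher and 4187 lower. With those factors 7 members were lower and 0 higher. The summed level of the arm in NT was 1461 ± 5.66 CPM (SD, n = 2), 58.6% of that in DMSO.

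**Figure D4:**
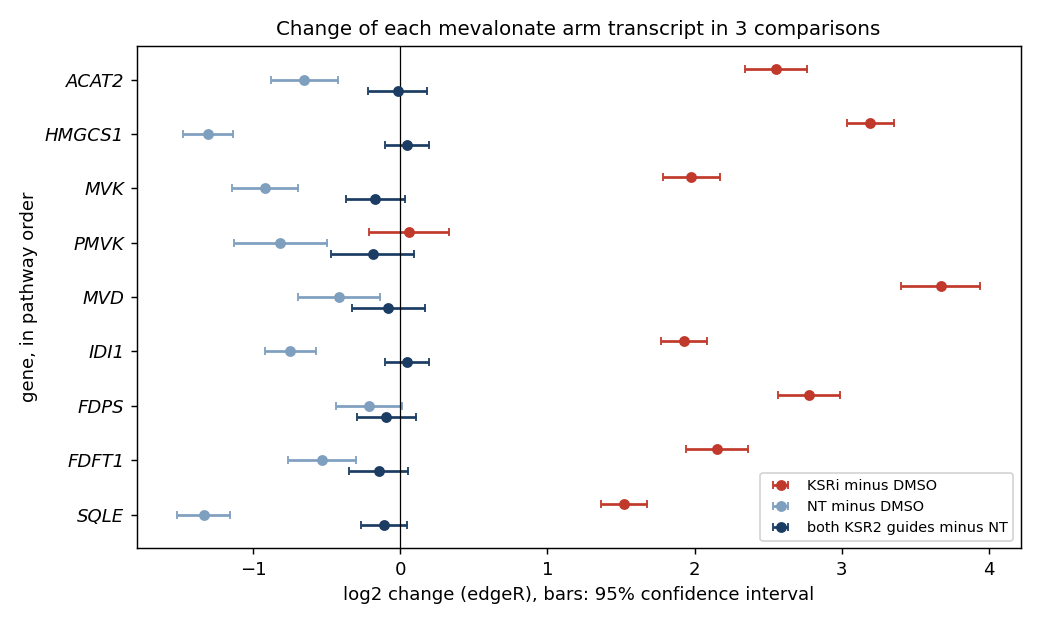
Log2 change of each member in 3 comparisons (horizontal axis), with 95% confidence intervals from edgeR as bars, in pathway order from the top. KSRi minus DMSO lies between 1.52 and 3.67 for 8 members and at 0.06 for PMVK, NT minus DMSO lies below 0 for all 9, and both guides minus NT lies between −0.19 and 0.05.

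The libraries with KSR2 guides were then compared with NT. With guide 1, with guide 2 and over both, 0 of the 9 members passed the test by edgeR, where 0.00527%, 0.0105% and 0.0158% of all tested genes did, and DESeq2 called 0 members too. At an unadjusted p under 0.05 by edgeR there were also 0 members in each case, and 880, 683 and 788 genes of all those tested. Both guide comparisons use the same NT libraries. Over both guides the log2 changes of the members ran from −0.19 (PMVK) to 0.05 (IDI1), with a median of −0.09 (−0.0044 over all genes). Their 95% intervals ran from −0.47 to 0.20, so changes of 2-fold in either direction lay outside every one of them.

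The libraries of NT and the guides overlapped in part. MVD stood at 90.5, 78.0 and 75.6 CPM with guide 1 and at 85.3, 82.8 and 75.2 CPM with guide 2, a range that overlapped the NT values. HMGCS1 stood at 278, 287 and 287 CPM with guide 1 and at 276, 272 and 249 CPM with guide 2. Guide 1 libraries were thus all above NT and those of guide 2 were not, and the log2 changes were 0.09 (SE 0.08) and −0.0015 (SE 0.08).

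By the log2 change over both guides, the members that lay lowest against NT were MVK, PMVK and FDFT1. MVK stood at 26.2, 23.2 and 24.1 CPM with guide 1 and at 22.6, 22.7 and 23.1 CPM with guide 2, with log2 changes of −0.12 (SE 0.11) and −0.22 (SE 0.11). PMVK stood at 17.2, 16.5 and 17.1 CPM with guide 1 and at 18.8, 16.8 and 16 CPM with guide 2, with log2 changes of −0.20 (SE 0.15) and −0.17 (SE 0.15). FDFT1 stood at 440, 398 and 420 CPM with guide 1 and at 439, 427 and 446 CPM with guide 2, with log2 changes of −0.18 (SE 0.11) and −0.12 (SE 0.11). In PMVK and FDFT1 all 6 guide libraries were below both NT libraries, without a call.

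SQLE stood at 97.2, 99.0 and 92.0 CPM with guide 1 and at 95.2, 90.4 and 96.9 CPM with guide 2, also below both NT libraries, with log2 changes of −0.10 (SE 0.08) and −0.12 (SE 0.08). Over the 6 guide libraries ACAT2 lay between 123 and 145 CPM, IDI1 between 128 and 150 CPM and FDPS between 186 and 217 CPM. The range of each of these overlapped that of the NT libraries. Counted over the arm, all guide 1 libraries were above NT in 1 member and below in 3 (12.9% and 14.2% of all tested genes). For guide 2 these counts were 0 and 4 (10.3% and 10.8%). Guide 2 differed from guide 1 by −0.10 to 0.08 on the log2 scale, with 0 members called (0.00527% of all tested genes).

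The guide libraries were also set beside DMSO. In 9 of 9 members every library of guide 1, and every library of guide 2, was below every DMSO library, as for 35.8% and 35.5% of all tested genes (and the reverse for 40.2% and 39.2%). The summed level was 1398 ± 38.1 CPM with guide 1 and 1393 ± 26.3 CPM with guide 2 (SD, n = 3 each), 56.1% and 55.9% of that in DMSO. In the order of group means KSRi and DMSO held the top places for every member, and their ranges were apart except in PMVK. Among NT, guide 1 and guide 2, neighbours in the order were apart for HMGCS1 (guide 1 above NT), MVK (guide 1 above guide 2), PMVK and FDFT1 (NT above guide 2) and SQLE (NT above guide 1), and overlapped otherwise. Shares of all tested genes with these orders of groups were not counted, so neither is read as particular to the members.

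The inhibitor effect, KSRi minus DMSO, was then set against the guide effect, both guides minus NT, by a test of their difference. It was called above 0 in 8 of 9 members and below 0 in 0, where 16.6% of all tested genes were called higher and 12.1% lower, 28.6% in all. The median was 2.30 on the log2 scale (0.03 over all genes). For MVD the difference was 3.75 (SE 0.16, edgeR adjusted p = 7.77e-11), for HMGCS1 3.15 (SE 0.10, edgeR adjusted p = 1.44e-12) and for SQLE 1.63 (SE 0.10, edgeR adjusted p = 7.60e-09). For PMVK it was 0.25 (SE 0.19, edgeR adjusted p = 0.344). Each effect is measured against its own control, and those controls differ as given above.

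Enzymes after squalene epoxide rose as well. Of 11 listed 10 were tested, and 9 rose and 0 fell with the inhibitor, with a median log2 change of 1.61 (22.0% of all tested genes rose and 18.7% fell). The reductase TM7SF2 went from 24.5 to 185 CPM (log2 change 2.92, edgeR adjusted p = 6.32e-12), the sterol oxidase MSMO1 from 156 to 1104 CPM (2.83, edgeR adjusted p = 1.32e-13) and lanosterol synthase LSS from 478 to 3004 CPM (2.65, edgeR adjusted p = 1.96e-11). In NT 8 of the 10 were lower than in DMSO and 0 higher (median −0.72), beside 31.2% and 34.6% of all tested genes. CYP51A1 had 0 to 11 counts per library, too few to be tested. Whether the counting captured its full level was not tested.

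Of the regulators of SREBP, 3 of 7 rose with the inhibitor and 0 fell (median 0.14), beside 22.0% and 18.7% of all tested genes. INSIG1, which retains SREBP in the endoplasmic reticulum and is itself an SREBP target, went from 584 to 3950 CPM (log2 change 2.76, edgeR adjusted p = 6.97e-13). SREBF2, the SREBP of sterol synthesis, went from 402 to 969 CPM (1.27, edgeR adjusted p = 5.92e-09), and SREBF1 from 240 to 388 CPM (0.69, edgeR adjusted p = 5.79e-05). In NT 3 of 7 were lower than in DMSO and 0 higher, where 31.2% of all tested genes were lower, so nothing is read from this count. INSIG1 was not among these: its log2 difference was −0.01 (edgeR adjusted p = 0.904), at 579 CPM in NT, while the 8 members named above were lower there.

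Transcripts of enzymes and carriers that supply acetyl-CoA moved both ways. Of 10 listed genes 9 were tested, and 5 rose and 1 fell (median 0.44), beside 22.0% and 18.7% of all tested genes. ACSS2, the acetyl-CoA synthetase that uses acetate, was scarce in DMSO, with 2.01 CPM, and reached 80.9 CPM in KSRi (log2 change 5.33, edgeR adjusted p = 6.97e-13). ATP citrate lyase, ACLY, went from 688 to 2918 CPM (2.08, edgeR adjusted p = 1.40e-10) and the mitochondrial citrate carrier SLC25A1 from 91.9 to 324 CPM (1.82, edgeR adjusted p = 5.00e-08). In NT 7 of the 9 were lower than in DMSO and 1 was higher, beside 31.2% and 34.6% of all tested genes. The higher one was ACSS2, at 15.04 CPM (log2 difference 2.91, edgeR adjusted p = 3.49e-10), which thus went against the members in that comparison.

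Enzymes that use isoprenoids for other ends moved both ways. Of 17 tested, 1 rose and 6 fell with the inhibitor (median −0.04), beside 22.0% and 18.7% of all tested genes. PDSS1, which makes the side chain of ubiquinone, changed by −0.82 (edgeR adjusted p = 5.57e-07), RABGGTB, a subunit of the Rab geranylgeranyl transferase, by −0.79 (edgeR adjusted p = 3.96e-05) and NUS1, a subunit of the dolichol-forming prenyltransferase, by −0.43 (edgeR adjusted p = 0.000100). In NT 14 of the 17 were lower than in DMSO and 0 higher (median −0.71), beside 31.2% and 34.6% of all tested genes.

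Mitochondrial enzymes of HMG-CoA and ketone bodies, which use the same intermediates in another compartment, moved both ways. Of 5 listed 4 were tested, and 2 rose and 2 fell with the inhibitor (median 0.03), beside 22.0% and 18.7% of all tested genes. BDH1, an enzyme of ketone body metabolism, changed by 0.23 (edgeR adjusted p = 0.0103) and ACAT1, the mitochondrial relative of ACAT2, by −0.23 (edgeR adjusted p = 0.00886). GGPS1, a relative of FDPS that makes geranylgeranyl diphosphate, changed by 0.01 (edgeR adjusted p = 0.961), from 9.83 to 9.84 CPM. IDI2 was at most at 0.134 CPM and was not tested. Of the 4 tested mitochondrial enzymes, 3 were lower in NT than in DMSO and 1 was higher. Among all tested genes 31.2% were lower and 34.6% higher, and the median log2 difference of the 4 was −0.86. In these 5 lists 0 genes were called with guide 1, with guide 2 or between the guides. Of all tested genes 0.00527%, 0.0105% and 0.00527% were called there, so nothing is read from these counts.

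**Figure D5:**
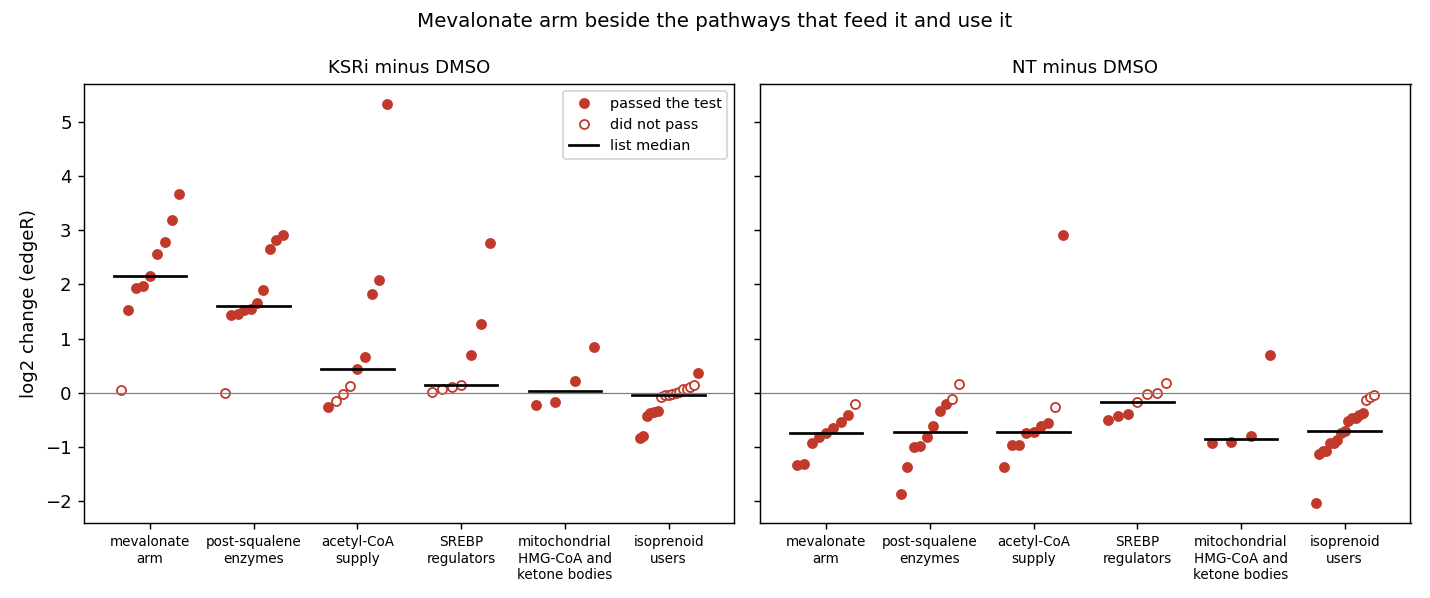
Log2 change of every tested gene in 6 lists (vertical axis), for KSRi minus DMSO on the left and NT minus DMSO on the right; filled points passed the edgeR test, open points did not, and the line is the list median. On the left the medians are 2.15 for the mevalonate arm and 1.61 for the post-squalene enzymes. Those of the other lists lie between −0.04 and 0.44. On the right 8 of 9 members lie below 0 and passed, and the median of the arm is −0.75. The fall is shared by other lists: the medians there are −0.72 for post-squalene enzymes and −0.72 for acetyl-CoA supply. They are −0.71 for isoprenoid users, −0.86 for the mitochondrial list and −0.17 for SREBP regulators.

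Likeness to the arm was measured over the 14 libraries as the root mean square difference between the centred log2 CPM of a gene and the mean of the 9 members, where 0 means the same course. The nearest genes outside the members were ACLY (0.12 on the log2 scale), LBHD1 (0.17), TMEM97 (0.20), ERG28 (0.21), PANO1 (0.21), LSS (0.22) and SCD (0.22). Against the same mean, which each of them enters, MVK (0.11), FDFT1 (0.12) and ACAT2 (0.14) were nearest, and MVD (0.52), HMGCS1 (0.57) and PMVK (0.85) lay farthest.

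Several members overlap or adjoin genes on the opposite strand, and the sources used here do not say whether counting used the strand. MMAB, an enzyme of vitamin B12 metabolism, starts 619 bases from MVK on the other strand and overlaps it by 620 bases. The inhibitor raised it from 43.6 to 110 CPM (1.34 on the log2 scale, edgeR adjusted p = 6.57e-10). The antisense transcript SNAI3-AS1 starts 137 bases from MVD and went from 11.4 to 55.1 CPM (2.28, edgeR adjusted p = 9.67e-11). WDR37 starts 368 bases from IDI1 and changed by 0.31 (edgeR adjusted p = 0.000397). SOD2-OT1, which overlaps ACAT2 by 2005 bases, went from 0.259 to 2.55 CPM (3.27, edgeR adjusted p = 2.73e-08). AC069185.1, which overlaps FDFT1 by 4641 bases, went from 0.400 to 1.80 CPM (2.09, edgeR adjusted p = 2.17e-05).

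Not all neighbours rose. TCP1, a chaperonin subunit that overlaps the end of ACAT2 by 558 bases, went from 1041 to 616 CPM (log2 change −0.76, edgeR adjusted p = 3.72e-07). RUSC1-AS1, which overlaps FDPS, changed by −1.87 (edgeR adjusted p = 1.58e-06) and IDI2-AS1, which overlaps IDI1, by −2.37 (edgeR adjusted p = 1.33e-05), both at under 3 CPM in DMSO. Annotated pseudogenes were found for FDPS (8) and IDI1 (3). Their summed level was at most 0.236% of that of FDPS and 0.0186% of that of IDI1 in any library. How reads shared between such genes were assigned was not tested.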

How the data were processed

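The authors deposited a table of raw counts, whole numbers per Ensembl gene, for the 14 libraries. Alignment with STAR 2.7.11b to GRCh38 and use of DESeq2 1.42.1 are named per the submitters' processing notes, without their role. The sources used here do not name the counting program, the strand setting or the release of the annotation. edgeR 4.0.16 under R 4.3.3 was used on these counts, with TMM factors. The filter filterByExpr, given the 5 groups, kept 18963 of 61541 genes, which held no less than 99.93% of any library's counts. All 14 libraries entered a joint fit with 1 mean per group, since NT has 2. Quasi-likelihood F tests were adjusted by Benjamini-Hochberg over all tested genes (threshold 0.05). P-values cover only the spread between these libraries, which may be technical. SDs are between libraries, and SEs and 95% intervals belong to log2 changes. Chi-square per degree of freedom between replicate libraries was 5.29 to 44.4 (highest in KSRi), above sampling noise, and the joint fit gives every group the same spread.

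Symbols were matched for 61369 identifiers and not for 172. Positions and exon lengths come from a GRCh38 gene annotation and promoters from RefSeq (GRCh38.p14). The members and lists were chosen with earlier results of these data known. Named genes are the 9 members, KSR2 and KSR1, paralogues of members (ACAT1, IDI2, GGPS1), the 3 genes of each of 5 lists with the lowest adjusted p for KSRi against DMSO, and the 8 genes nearest in likeness. A few genes picked in these ways are not reported here. Neighbouring genes and pseudogenes were taken by position or name after the members' values had been seen. Replicate numbers did not pair the samples. The 24 alternatives covered 2 other scalings (RLE, upper quartile), a looser and a stricter filter on low counts (none, or 5 CPM in 3 libraries), 2 other tools (DESeq2 1.42.0 and voom in limma 3.58.1), a separate fit of the groups compared, a replicate block, 2 stricter thresholds and the omission of each library. Those on single members in NT against DMSO and in the guides were added after the data were seen. The fit was tested on simulated data.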

Additional observations from a re-analysis of the deposited data

Results flagged for a closer look

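For 8 members the inhibitor effect (KSRi minus DMSO) differed from the guide effect (both guides minus NT) by the edgeR test of the difference itself. On the log2 scale the difference was 2.57 for ACAT2, 3.15 for HMGCS1, 2.15 for MVK, 3.75 for MVD, 1.88 for IDI1, 2.87 for FDPS, 2.30 for FDFT1 and 1.63 for SQLE. Each rested on a rise with the inhibitor beside changes with the guides that did not pass the test, with edgeR adjusted p values of the difference from 1.44e-12 (HMGCS1) to 7.60e-09 (SQLE). No group held 4 or more libraries, so no test for a single library standing apart was run. Chi-square per degree of freedom was 32.04 and 44.4 between KSRi replicate 1 and replicates 2 and 3, and 15.46 between replicates 2 and 3. The inhibitor comparison called 7712 of 18963 tested genes with all libraries. It called 8928 of 18978 without KSRi replicate 1, 6209 of 18918 without replicate 2 and 6752 of 18976 without replicate 3.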

How the results depend on the processing

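The counts of members called with the inhibitor (8 higher, 0 lower) and in the difference between inhibitor and guides (8 and 0) were the same under all alternatives run, as were the 0 calls in the guide comparisons. When at least a 2-fold change was also asked, 1051 of the 18963 tested genes were higher and 424 lower with the inhibitor. In the difference these counts were 992 and 421. The number lower in NT than in DMSO was 8, ran from 2 to 9 over the 24 alternatives, and was 2 when at least a 2-fold change was also asked. At 2-fold, 1545 of the 18963 tested genes were lower in NT and 3747 higher. With upper-quartile factors FDPS changed sign there (0.0016). Without 1 library each in turn, PMVK with the inhibitor ran from −0.12 to 0.20, and its sign changed without DMSO replicate 2 or KSRi replicate 3. Over both guides, leaving out 1 library gave −0.12 to 0.0901 for ACAT2, −0.20 to 0.054 for MVD and −0.0392 to 0.14 for IDI1, with sign changes without NT replicate 1 (MVD, IDI1), NT replicate 2 or guide 1 replicate 3 (ACAT2). MVD in NT against DMSO also lost its call with the filter of 5 CPM (−0.27, edgeR adjusted p = 0.0768), and FDPS gained one with only the groups compared (−0.19, edgeR adjusted p = 0.0321) and without KSRi replicate 1 (−0.21, edgeR adjusted p = 0.0211). The cause was not tested.

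The replicate block kept 8 members with the inhibitor, 8 in NT against DMSO and 0 with the guides. Of the 18963 tested genes it called 3932 higher and 3285 lower with the inhibitor. In NT against DMSO it called 6320 higher and 5638 lower, and over both guides 0 and 2. Same-numbered libraries did not deviate together: 1 of 26 pairs had a correlation over 0.1 (range −0.184 to 0.111), and 3 of 14 libraries were nearest to their own number. Each member had at least 552 counts in every library, and NT has 2 libraries.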
